A study of Mus musculus with 9 samples.

Results

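The genes of the platelet-derived growth factor (PDGF) system were followed in RNA-seq of sorted mouse pancreatic ductal adenocarcinoma (PDAC) cells. The 7 genes were chosen by name from the 47643 genes counted: the ligand genes Pdgfa, Pdgfb, Pdgfc and Pdgfd, the receptor genes Pdgfra and Pdgfrb, and Cspg4, which encodes the proteoglycan NG2. All 7 passed the filter on low counts that left 14105 genes for the test. Pdgfd passed it only through the KPF libraries, which held 103 of its 104 reads.

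The study asked which genes differ between PDAC cells that still express Yap, a transcriptional co-activator, and cells of tumors that grew back after its deletion. KPF mice carried Trp53 frt/+, Pdx-Flp and R26 FSF-CreER/Dual, and KPYYF mice carried these alleles plus Yap flox/flox. In both, Flp recombinase driven in the pancreas deletes Trp53 and marks the cells with EGFP, and tamoxifen (TAM) then lets CreER remove EGFP and switch on tdTomato (Tm), which in KPYYF cells goes with deletion of Yap. The groups were GFP+ cells of TAM-treated KPF mice (6 libraries) and Tm+ cells of relapsed nodules of TAM-treated KPYYF mice (3 libraries), named here by mouse number. Genotype, Yap deletion, reporter colour and growth as a relapse changed together, so their parts cannot be told apart, and the labels give neither age nor sex of a mouse. KPF libraries 4504h and 4504s carry the same mouse number, and each of the other libraries has its own.

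PDGF ligands are secreted dimers that act through a pair of receptor tyrosine kinases. PDGF-A, PDGF-B and PDGF-C bind the alpha receptor, and PDGF-B and PDGF-D bind the beta receptor. In pancreas and its tumors the ligands are best known as signals from epithelial and endothelial cells to fibroblasts, stellate cells and pericytes, which carry the receptors, while NG2 is a membrane proteoglycan of pericytes and glial precursors that binds PDGF-AA.

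Libraries held 8116539 to 9635514 reads on genes. Yap1, the targeted gene, stood at 99.3 ± 41.8 CPM (reads scaled by library size; SD, n = 6) in KPF libraries. In KPYYF libraries it stood at 3.56 ± 3.27 CPM (SD, n = 3), and the fitted log2 fold change was -4.79 (adjusted p = 0.0159). All 3 KPYYF libraries but only KPF libraries 4435, 4504h and 4504s held at least 1000 reads of Xist, so this difference runs partly along with the groups. Fold changes below are KPYYF minus KPF on the log2 scale, from edgeR's quasi-likelihood test with TMM scaling, and p values were adjusted by the Benjamini-Hochberg method across the 14105 genes. The rule of the study's methods is an unadjusted p under 0.05 with more than a 2-fold change. Because these are counts of 3′ end tags, levels of different genes are set side by side only within a library, as reads. In bulk libraries, fewer cells that express a gene and less RNA per cell cannot be told apart.

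Cspg4 and Pdgfra were higher and Pdgfb and Pdgfc lower in KPYYF than in KPF libraries by the rule of the methods, and Cspg4 alone passed adjustment over all genes. Pdgfa, Pdgfd and Pdgfrb did not pass either test. Adjusted p values under 0.05 were held by 1 of the 7 genes, against 1.1% of all genes tested. The rule called 2 of the 7 higher and 2 of the 7 lower, against 4.2% and 9.2% of all genes. Groups that did not overlap were found for Cspg4 in the higher and Pdgfb in the lower direction, against 3.92% and 5.18% of all genes.

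**Figure D1:**
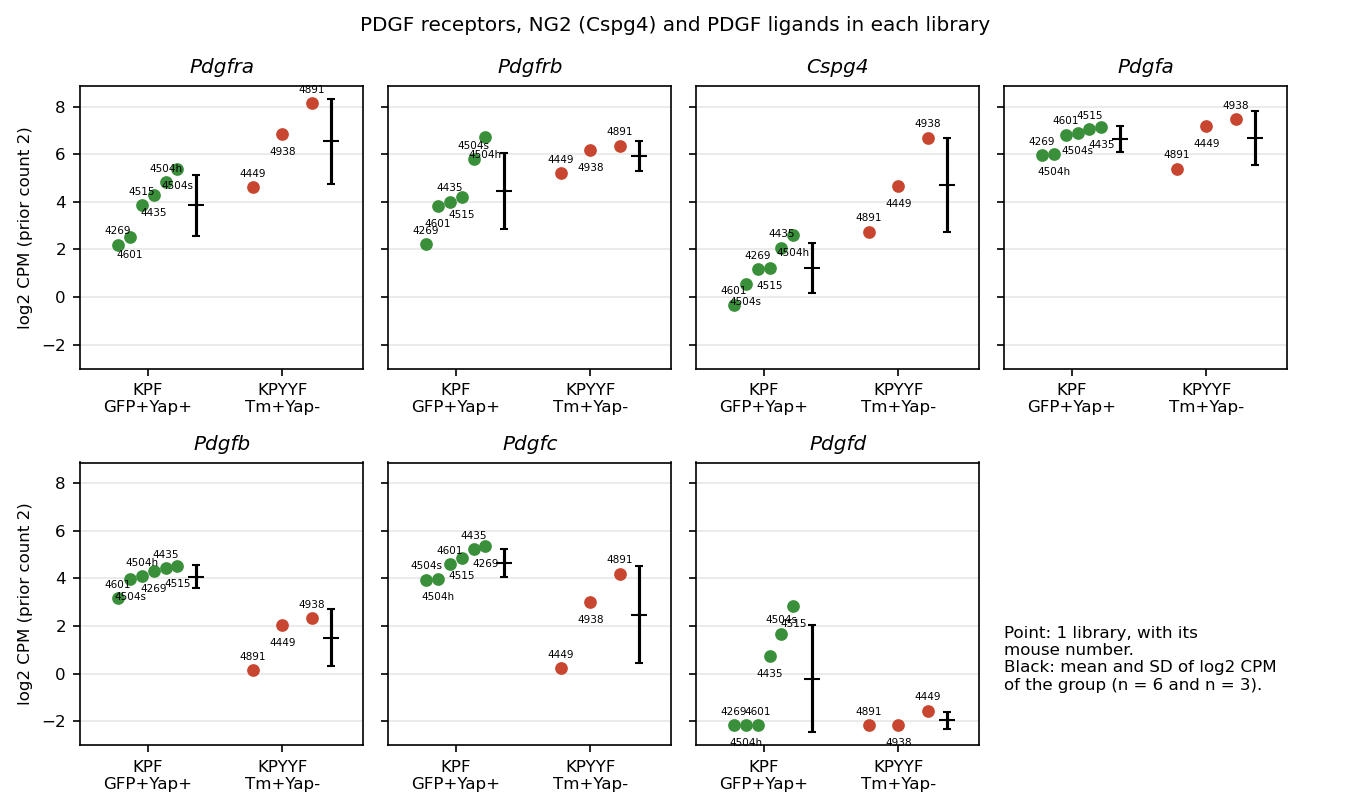
Level of each PDGF gene in each library as log2 CPM (prior count 2), in KPF (GFP+Yap+, 6 libraries, green) and KPYYF (Tm+Yap-, 3 libraries, red) cells. The KPYYF points lie above all KPF points for Cspg4 and below all of them for Pdgfb, and the other genes overlap.

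Pdgfa (ENSMUSG00000025856, chr5:138976014-138997370, minus strand, mm10) was the most abundantly counted ligand gene in every library. Its KPF levels were 62.0, 142, 63.9, 118, 132 and 113 CPM in libraries 4269, 4435, 4504h, 4504s, 4515 and 4601. Its KPYYF levels were 144, 42.0 and 179 CPM in libraries 4449, 4891 and 4938. The 3 KPYYF libraries held both the lowest and the highest values, so the groups overlapped. The means were 105 ± 34.3 CPM (SD, n = 6) and 121 ± 71.0 CPM (SD, n = 3), with a fold change of 0.21 (standard error 0.42, adjusted p = 0.870). The interval of that difference ran from -0.62 to 1.04, and its sign changed without KPYYF library 4938, where it was -0.18.

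Pdgfb (ENSMUSG00000000489, chr15:79995874-80014977, minus strand) encodes the ligand of both receptors. It stood at 19.6, 21.4, 16.8, 15.4, 22.6 and 8.75 CPM in the KPF libraries, in the same order. The KPYYF libraries held 3.92, 0.875 and 4.82 CPM, all under the lowest KPF library. The means were 17.4 ± 5.04 CPM (SD, n = 6) and 3.21 ± 2.07 CPM (SD, n = 3), a fold change of -2.44 (standard error 0.69, unadjusted p = 0.00345, adjusted p = 0.109). An exact permutation test of log2 CPM gave p = 0.0119, the smallest value that 6 against 3 libraries allow, not adjusted for the number of genes. That test counts 4504h and 4504s, of one mouse number, as separate libraries. With these summed, edgeR gave -2.46 (adjusted p = 0.141).

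Pdgfc (ENSMUSG00000028019, chr3:81036416-81214040, plus strand), a ligand that is secreted in latent form, was lower by the rule alone. Its KPF levels were 40.4, 37.2, 15.4, 15.3, 28.6 and 23.8 CPM, and its KPYYF levels were 0.950, 18.2 and 7.78 CPM. Library 4891 lay inside the KPF range and the other KPYYF libraries below it. The fold change was -1.58 (standard error 0.73, unadjusted p = 0.0492, adjusted p = 0.307). Leaving out single libraries moved it between -2.61 and -1.05, and an unadjusted p under 0.05 was kept in 2 of the 9 such fits, without KPF library 4504h and without KPYYF library 4891.

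Pdgfd (ENSMUSG00000032006, chr9:6168584-6378850, plus strand), whose product acts on the beta receptor, was near the limit of detection. KPF libraries 4435, 4504s and 4515 held 14, 26 and 63 reads, and the other 3 KPF libraries held 0. KPYYF library 4449 held 1 read and the other KPYYF libraries 0, where a count of 0 allows up to 0.329 CPM in library 4938. Library 4515 alone held 63 of the 103 KPF reads. Since the gene passed the filter through KPF reads, an excess in KPF was set by the filter and is no result, and the fitted change had an adjusted p of 0.370. Pdgfd lies 1.553 Mb from Yap1 on chromosome 9.

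Within the PDGF ligand reads of a library, Pdgfa took 50.8 to 77.9% in KPF libraries. It took 96.6% in library 4449 (Wilson 95% interval 95.5 to 97.5), 93.4% in 4938 (92.1 to 94.5) and 68.8% in 4891 (64.9 to 72.5). Library 4891 thus stayed within the KPF range, and Pdgfc made up 29.7% of its ligand reads. Pdgfb made up 6.00 to 17.4% in KPF and 1.43 to 2.63% in KPYYF libraries. The summed ligand level was 96.1 to 202 CPM in KPF and 61.0 to 191 CPM in KPYYF libraries, so it overlapped. Intervals and limits cover counting error only. These shares and the read ratios below were chosen after the values were seen and were not tested.

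**Figure D2:**
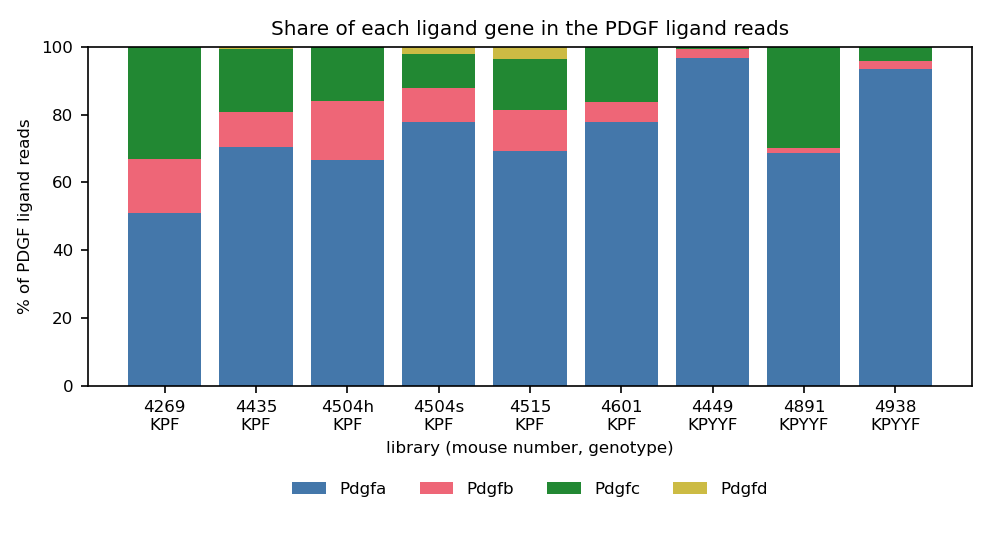
Share of each ligand gene, in % of the PDGF ligand reads of a library, for 6 KPF and 3 KPYYF libraries. Pdgfa fills 96.6% and 93.4% of the bars of KPYYF libraries 4449 and 4938 and 68.8% of that of 4891, against 50.8 to 77.9% in KPF libraries.

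Pdgfra (ENSMUSG00000029231, chr5:75152292-75198215, plus strand), the alpha receptor gene, was higher in KPYYF libraries by the rule. Its KPF levels were 4.38, 19.1, 28.3, 42.0, 14.4 and 5.54 CPM. Its KPYYF levels were 24.3 CPM in library 4449, 285 CPM in 4891 and 116 CPM in 4938. Libraries 4891 and 4938 lay above every KPF library, and 4449 lay between KPF libraries 4435 and 4504h. The means were 19.0 ± 14.4 CPM (SD, n = 6) and 141 ± 132 CPM (SD, n = 3). The fold change was 2.90 (standard error 0.77, unadjusted p = 0.00317, adjusted p = 0.105), and the exact permutation test gave p = 0.0476. With the Wald test of DESeq2 the adjusted p was 0.00215, and without library 4449 edgeR gave 0.0406. These were the only 2 of 19 alternatives in which Pdgfra passed adjustment. Among the 9 fits that each left out 1 library, it passed in 1. Without library 4891 the fold change was 1.88 (edgeR adjusted p = 0.307).

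Pdgfrb (ENSMUSG00000024620, chromosome 18), the beta receptor gene, did not differ beyond its spread. It stood at 4.47, 15.9, 106, 55.5, 18.0 and 14.0 CPM in KPF and 36.9, 81.9 and 72.7 CPM in KPYYF libraries. Both 4504 libraries, of one mouse number, lay in or above the KPYYF range, and the other KPF libraries lay below it. The fold change was 0.84 (standard error 0.78, adjusted p = 0.666, interval -0.69 to 2.38). Without both 4504 libraries, a choice made after the values were seen, it was 2.28 (unadjusted p = 0.00144, adjusted p = 0.0906).

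The alpha to beta receptor read ratio was 0.268 to 1.20 in KPF libraries. In KPYYF libraries it was 0.659 in 4449, 3.47 in 4891 and 1.59 in 4938, so 4449 lay inside the KPF range. Summed receptor levels were 8.85 to 134 CPM in KPF and 61.3 to 366 CPM in KPYYF libraries. Among KPF libraries, both receptor genes were lowest in 4269 and 4601, where the summed fibroblast markers were also lowest, at 999 and 1002 CPM against 3499 to 6307 CPM in the other KPF libraries.

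Cspg4 (ENSMUSG00000032911, chr9:56865033-56899870, plus strand) rose in KPYYF libraries. The KPF libraries held 2.04, 4.00, 5.83, 1.25, 2.10 and 0.583 CPM, from 21, 39, 57, 11, 19 and 4 reads. The KPYYF libraries held 25.3 CPM in 4449, 6.45 CPM in 4891 and 103 CPM in 4938, from 213, 59 and 939 reads. All 3 lay above every KPF library, but 4891 only just above 4504h. The means were 2.63 ± 1.94 CPM (SD, n = 6) and 44.9 ± 51.1 CPM (SD, n = 3). The fold change was 4.08 (standard error 0.80, interval 2.51 to 5.65, adjusted p = 0.0351), and the exact permutation test gave p = 0.0119, the smallest it allows. It was 2.58 (adjusted p = 0.279) without library 4938, and it passed adjustment in 4 of the 9 fits that each left out 1 library. With libraries 4504h and 4504s summed, the edgeR fold change was 4.16 (adjusted p = 0.0412).

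**Figure D3:**
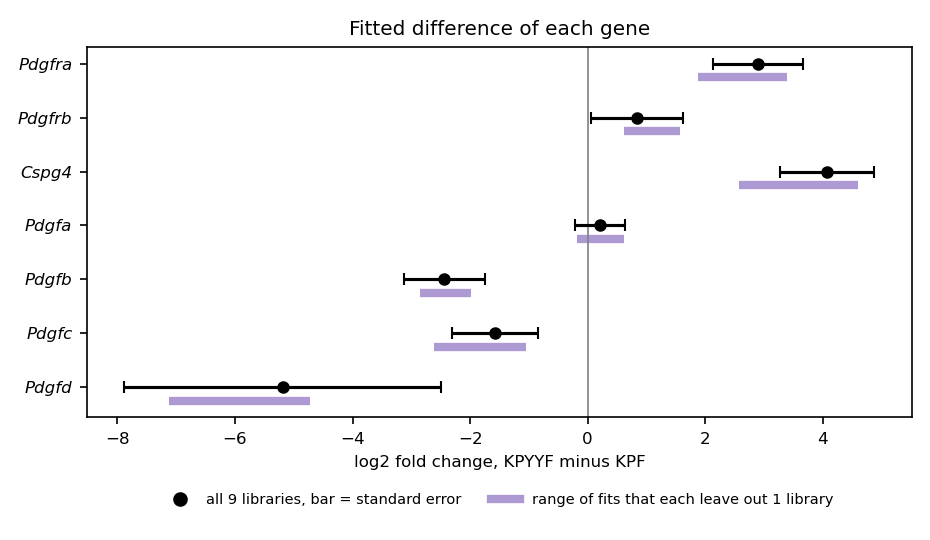
Fitted log2 fold change of each PDGF gene, KPYYF minus KPF, with its standard error (black) and the range of the fits that each leave out 1 library (purple). Cspg4 spans 2.58 to 4.59 and Pdgfra 1.88 to 3.40 in those fits, and Pdgfa runs through 0.

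Windows before the RefSeq start sites (GRCm38.p6, 250 bases) were searched on both strands for the letters GGAATG of TEAD factors, through which Yap acts on DNA, TGANTCA of AP-1, AACAAT of SOX factors and TAATTA of homeobox factors. Of the 5 genes with an entry (Pdgfa, Pdgfc, Pdgfd, Pdgfra and Cspg4), Pdgfc alone held a match, to the TEAD letters, whose first base lay 137 bases before the start. Among 32851 such windows, 12.6% held the TEAD letters, 6.75% the AP-1, 9.42% the SOX and 4.84% the homeobox letters. The windows of the receptor gene and the proteoglycan gene that were higher and of the lower ligand gene are shown 5′ to 3′ to set this match beside windows without one, Pdgfra at chr5:75152001-75152250, Cspg4 at chr9:56864854-56865032, which stops at the first annotated exon, and Pdgfc at chr3:81036166-81036415, all on the plus strand. Capitals mark the TEAD letters.
Pdgfra: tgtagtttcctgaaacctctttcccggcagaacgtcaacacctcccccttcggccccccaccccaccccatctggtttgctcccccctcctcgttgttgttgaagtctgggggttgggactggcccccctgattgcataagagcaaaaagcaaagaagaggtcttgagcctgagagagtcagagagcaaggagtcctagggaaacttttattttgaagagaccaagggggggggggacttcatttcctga
Cspg4: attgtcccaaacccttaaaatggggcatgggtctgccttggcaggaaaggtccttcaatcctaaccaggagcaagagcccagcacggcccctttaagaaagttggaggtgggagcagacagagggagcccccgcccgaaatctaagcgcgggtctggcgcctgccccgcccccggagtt
Pdgfc: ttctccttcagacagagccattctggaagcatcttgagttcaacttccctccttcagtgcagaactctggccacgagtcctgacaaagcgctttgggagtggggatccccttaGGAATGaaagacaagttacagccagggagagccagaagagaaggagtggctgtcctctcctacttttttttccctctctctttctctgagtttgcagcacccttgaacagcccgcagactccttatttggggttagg
A match is a description of the letters, and no binding data were analysed here.

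Of 10 genes that process PDGF ligands or bind them or their receptors, 3 were lower and 0 higher by the rule, against 9.2% and 4.2% of all genes, with a median fold change of -0.73 against -0.07 over all genes, and 0 passed adjustment in edgeR. Plat, the plasminogen activator that cleaves latent PDGF-C, was at 57.3 to 248 CPM in KPF and 33.8 to 46.9 CPM in KPYYF libraries, a fold change of -1.98 (adjusted p = 0.0506). Thbs1, a matrix protein that binds PDGF, had -1.18 and Pcsk5, a proprotein convertase, had -3.60. Pcsk5 reached at most 2.84 CPM in KPYYF libraries and passed the filter mainly through KPF reads. Plau and St14, proteases that can cleave PDGF-D, had 0.49 and -2.14 and were not called.

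Of 23 genes of proximal receptor signalling, 2 were lower and 0 higher by the rule, with a median of -0.026. That is 8.7% lower, near the 9.2% of all genes, so the count says nothing particular about these genes. The lower ones were Ptprj, a phosphatase that acts on PDGF receptors, with -3.46, and Slc9a3r2, a scaffold protein that binds them, with -2.23. Neither passed adjustment (adjusted p = 0.309 and 0.161). Ptprj reached at most 1.20 CPM in KPYYF libraries and passed the filter mainly through KPF reads.

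Of 18 early response genes of PDGF stimulation, 2 were higher and 1 lower by the rule, with a median of 0.0028. These are 11.1% and 5.56%, against 4.2% and 9.2% of all genes. Myc stood at 8.61 to 25.5 CPM in KPF and 36.1 to 87.7 CPM in KPYYF libraries, a fold change of 1.84 (adjusted p = 0.0631). Spry2, a feedback inhibitor of receptor tyrosine kinases, had 1.19 and Plaur, the urokinase receptor, had -1.45. Many of these genes also answer other growth factors.

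Of 11 tested genes of related growth factors and receptors, Vegfb was higher, with 1.34 (adjusted p = 0.239), and Kdr lower, with -3.40 (adjusted p = 0.180). Each is 9.09% of the list, against 4.2% higher and 9.2% lower over all genes. Kdr reached at most 4.37 CPM in KPYYF libraries and passed the filter mainly through KPF reads. Kdr lies on chromosome 5 next to Kit, which itself lies 0.377 Mb from Pdgfra, and Kit was near the limit of detection, at 0 to 9.18 CPM in KPF and 0 to 1.20 CPM in KPYYF libraries. Of 12 tested NG2 partners, Itga3, an integrin chain, was the single gene called, with -1.52 (adjusted p = 0.156), and the median was -0.25. That is 8.33% lower, near the 9.2% of all genes, so the count says nothing particular about the NG2 partners.

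Because receptors and NG2 also mark stromal cells, defining markers of cell types that a sort could hold were read beside them. Of 15 fibroblast markers tested, 2 were higher and 1 lower by the rule, with a median of 0.24. These are 13.3% and 6.67%, against 4.2% and 9.2% of all genes. Dpt and Thy1 were higher, with 2.04 and 1.92 (adjusted p = 0.156 and 0.251), and Fbln2 was lower, with -1.74. The summed fibroblast markers were 999 to 6307 CPM in KPF and 1315 to 4112 CPM in KPYYF libraries. Dcn, a fibroblast proteoglycan, was counted in every library, at 102 to 690 CPM in KPF and 71.6 to 641 CPM in KPYYF libraries, and Lum at 0.584 to 48.5 and 24.3 to 105 CPM. The part of fibroblast RNA in the receptor levels was not tested.

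Per read of Dcn in the same library, Pdgfra had 0.0322 to 0.135 reads in KPF libraries and 0.340, 0.444 and 0.224 in KPYYF libraries 4449, 4891 and 4938. These groups did not overlap, but the separation depended on the marker. Of the 12 fibroblast markers with reads in every library, 7 (Dcn, Col1a1, Col1a2, Pdpn, Mmp2, Fbln2 and Cd34) left every KPYYF ratio of Pdgfra above every KPF ratio, and 5 (Lum, Dpt, Col3a1, Thy1 and Fbln1) left the groups overlapping. Changes of the markers themselves enter these ratios. Of the 7, Col1a1 (-1.46), Col1a2 (-1.71), Pdpn (-0.55) and Fbln2 (-1.74) had negative fold changes. Dcn (0.52), Mmp2 (0.80) and Cd34 (0.92) had positive ones. All of the 5 had positive fold changes, from 0.24 (Col3a1) to 2.04 (Dpt). Per Lum read, Pdgfra had 0.297 to 7.50 reads in KPF and 1.00, 2.71 and 2.87 in KPYYF libraries, and per Thy1 read 0.238 to 3.00 and 0.373, 1.07 and 0.892. Pdgfrb had 0.0330 to 0.253 reads per Dcn read in KPF and 0.516, 0.128 and 0.141 in KPYYF libraries, and its groups overlapped for 9 of the 12 markers.

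Of 8 pericyte markers tested, 1 was higher and 2 lower by the rule (12.5% and 25%), against 4.2% and 9.2% of all genes. The median was -1.34, and the summed pericyte markers were 37.5 to 277 CPM in KPF and 28.5 to 118 CPM in KPYYF libraries. Rgs5 was lower, at 19.9 to 119 CPM in KPF and 3.09 to 11.5 CPM in KPYYF libraries, with -2.52 (adjusted p = 0.113). Heyl was also lower and Notch3 higher, with 2.09 (adjusted p = 0.234), and Kcnj8 and Abcc9 reached at most 6.12 and 2.52 CPM in KPYYF libraries. Heyl, at no more than 0.109 CPM in KPYYF libraries, passed the filter through KPF reads. Its excess in KPF was set by the filter and is no result, although the count includes it. Cspg4 had 0.0105 to 0.279 reads per read of Rgs5 in KPF libraries and 8.19, 0.562 and 9.99 in KPYYF libraries 4449, 4891 and 4938, without overlap. That separation was fixed by the levels themselves, since every KPYYF library lay above all KPF libraries for Cspg4 and below them for Rgs5. Of the 4 pericyte markers with reads in every library, Rgs5 alone gave such a separation, and the groups overlapped for Notch3, Mcam and Des. Per Notch3 read, Cspg4 had 0.149 to 7.00 reads in KPF and 4.53, 0.272 and 2.89 in KPYYF libraries. Per Pdgfrb read, it had 0.0226 to 0.457 reads in KPF and 0.685, 0.0788 and 1.42 in KPYYF libraries, which also overlapped. NG2 also marks Schwann cell and oligodendrocyte precursors, but Sox10, Olig2 and Foxd3 had no read in any library.

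**Figure D4:**
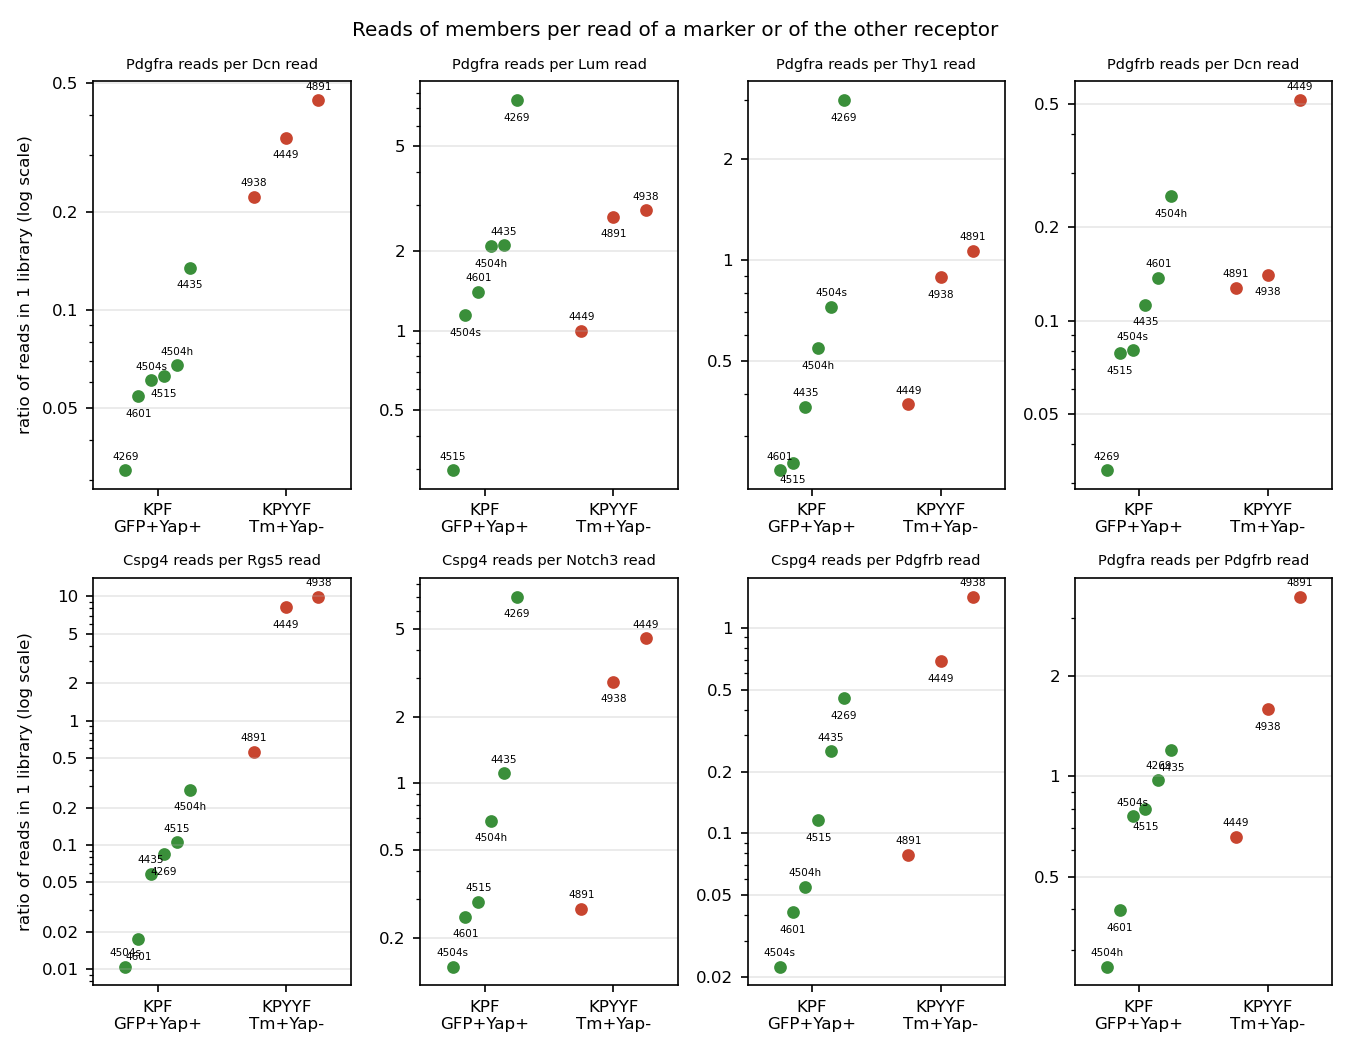
Reads of a PDGF gene per read of a fibroblast marker (Dcn, Lum or Thy1), of a pericyte marker (Rgs5 or Notch3) or of Pdgfrb in each library, on log axes, for KPF (green) and KPYYF (red). The groups are separate for Pdgfra per Dcn (0.0322 to 0.135 against 0.224 to 0.444) and Cspg4 per Rgs5 (0.0105 to 0.279 against 0.562 to 9.99) and overlap in the other 6 panels, such as Pdgfra per Lum (0.297 to 7.50 against 1.00 to 2.87) and Cspg4 per Pdgfrb (0.0226 to 0.457 against 0.0788 to 1.42). The separation of Cspg4 per Rgs5 was fixed by the levels of Cspg4 and Rgs5 themselves.

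Vascular smooth muscle markers were lower by the rule in 4 of 6 (Acta2, Actg2, Tagln and Mylk), against 9.2% of all genes, with a median of -2.51. Actg2 had no read in a KPYYF library, a bound of at least 17.4-fold lower against 3 counts per library. It also had no read in KPF library 4269, so its groups overlapped. Myh11 and Cnn1 reached at most 2.19 and 4.99 CPM in KPYYF libraries, against 13.9 and 2.04 CPM in KPF libraries. The Cnn1 value of 4.99 CPM came from 42 reads in library 4449, and Cnn1 was not tested. Mesothelial markers were lower in 5 of 6, against 9.2% of all genes, with a median of -4.24. The median was -3.64 with Gpm6a, which had no KPYYF read, at its bound. Upk1b passed adjustment (adjusted p = 0.0277), Msln, which PDAC cells also express, had -2.81, Upk3b and Wt1 were lower too, and Lrrn4 reached at most 1.42 CPM in KPYYF libraries. Upk1b reached at most 0.109 CPM in a KPYYF library. Like Pdgfd, Actg2, Gpm6a, Upk1b and Upk3b passed the filter through KPF reads. Their excess in KPF was set by the filter and is no result, although the counts include them. Tagln reached at most 2.51 CPM in KPYYF libraries and passed the filter mainly through KPF reads. Of 3 stellate markers tested, Fabp4 was lower (33.3%, against 9.2% of all genes), with -2.10. Lrat, Hgf and Gfap reached at most 5.72 CPM in any library.

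Of 6 endothelial markers tested, Vwf was lower (16.7%, against 9.2% of all genes). Vwf, at no more than 0.219 CPM in KPYYF libraries, passed the filter through KPF reads. Its excess in KPF was set by the filter and is no result, although the count includes it. Pecam1, Cdh5 and Tek stood at no more than 23.5 CPM in any library. Of 8 macrophage and leukocyte markers, Cd14 was lower (12.5%, against 9.2% of all genes), with -1.94, and Ptprc, Adgre1 and Cd68 were not called. Their sum was 474 to 1525 CPM in 5 KPF libraries, 9638 CPM in 4601 and 389 to 816 CPM in KPYYF libraries. None of 4 platelet markers tested was called by edgeR under the rule, and Pf4, Ppbp and Itga2b had 216, 15.6 and 17.5 CPM at most. Library 4601 had the lowest Cspg4 and Pdgfb levels of the KPF libraries, and the part of leukocyte RNA in them was not tested.

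Epithelial markers were lower by the rule in 7 of 10, against 9.2% of all genes, with a median of -2.56. Cdh1, Krt18 and Muc1 passed adjustment (adjusted p = 0.0351, 0.0141 and 0.0422). The summed epithelial markers were 3535 to 12468 CPM in KPF and 609 to 2034 CPM in KPYYF libraries. Krt7 and Krt19 were lower too, and Epcam had -1.41 and was not called. S100b, of the Schwann list, and Erbb3 were lower, with -3.84 (adjusted p = 0.0357) and -2.86. Epithelial levels moved with the groups in the direction of Pdgfb and opposite to Cspg4 and Pdgfra, and their part was not tested.

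**Figure D5:**
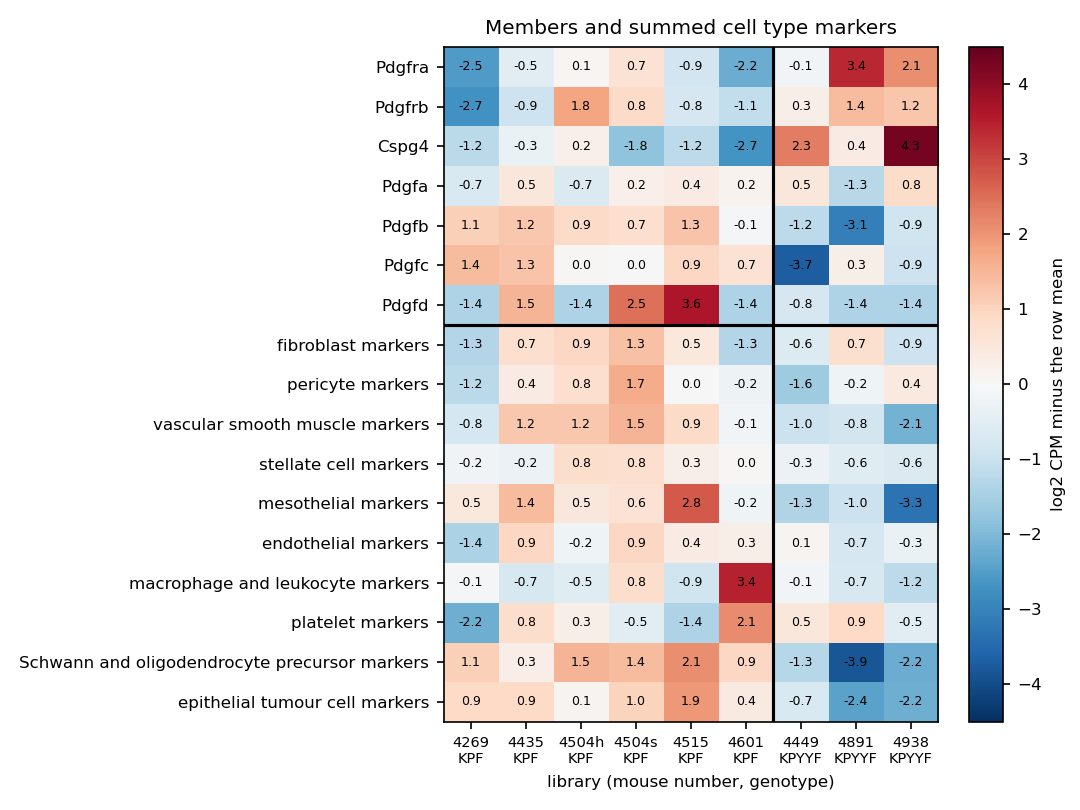
Level of each PDGF gene (log2 CPM, prior count 2) and of the summed markers of each cell type (log2 of summed CPM) in each library, minus the row mean, with red higher and blue lower. Pdgfrb is high in both 4504 libraries as well as in KPYYF libraries. Epithelial, mesothelial, Schwann, vascular smooth muscle and stellate sums are lower in every KPYYF than in every KPF library. For vascular smooth muscle and stellate sums the margin is narrow.

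The genes of most similar pattern over the 9 libraries, by the smallest root mean square difference of row-centred log2 CPM among 8877 genes with a mean of at least 10 CPM, were named for each PDGF gene. For Pdgfra they were Prrx1 (0.58), a mesenchymal homeobox factor, Fgfr1 (0.60), a fibroblast growth factor receptor, and B4galt2 (0.74). Prrx1 and Fgfr1 had fold changes of 3.59 and 2.68 (adjusted p = 0.0454 and 0.0351). For Pdgfrb they were Aebp1 (0.52), Mrps10 (0.55) and Htra1 (0.58). For Cspg4 the nearest were farther away, Ccnb1 (1.07), a cyclin of mitosis, Akr1b3 (1.11) and Gt(ROSA)26Sor (1.12), a transcript of the R26 locus that holds the reporter. Gt(ROSA)26Sor had a fold change of 4.60 (adjusted p = 0.00324). For Pdgfb they were Epha2 (0.37), Sh3d19 (0.41) and Tspo (0.41), for Pdgfc Oplah (0.38), Pafah2 (0.43) and Elmo1 (0.45), for Pdgfa Hs6st1 (0.27), Mogs (0.33) and Ints7 (0.36), and for Pdgfd Atp8b1 (0.98), Cldn4 (1.00) and Slc37a1 (1.00). The distances describe likeness over these libraries and were not tested.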

How the data were processed

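Counts of 9 libraries of sorted PDAC cells were used. As deposited by the authors, each file holds raw counts per Ensembl gene of a library (QuantSeq 3′ Fwd, RNAeasy), with summary lines in the HTSeq layout. The submitters' processing notes name STAR, HTSeq and mm10, and versions, annotation and strand setting are not given in the sources used here. The methods section describes BeadChips, while the values are whole read counts. Genes took 37.3 to 42.0% of reads and reads without a unique alignment 43.8 to 53.4%. Pdgfa, Pdgfc and Pdgfra share exon bases with antisense genes, and Pdgfra also with a microRNA gene, so their reads could be split.

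Of 47643 genes, 47224 were matched to a symbol in GENCODE M21, and 14105 with at least 100 reads in all were tested with edgeR 4.0.16 (quasi-likelihood, robust, TMM, no covariates, two-sided) in R 4.3.3. Genes with few or no KPYYF reads, such as Actg2, Gpm6a, Upk1b, Upk3b, Heyl and Vwf, passed this filter through KPF reads. Their excess in KPF was set by it. CPM used TMM-scaled library sizes, log2 CPM of single libraries a prior count of 2, and a count of 0 allows up to 3 counts (0.292 to 0.437 CPM). Intervals are 95%. Exact permutation tests used all 84 splits into 6 and 3 libraries, with 4504h and 4504s counted as separate libraries. The 3′ tags do not correct for length. Genes named from other lists were those called by the rule (at most 4 of largest change) or with an adjusted p under 0.05, the first 3 markers of each cell type, and the 3 of most similar pattern. The PDGF genes and all lists were chosen with earlier results of these data known. DESeq2 1.42.0, limma-voom (limma 3.58.1), other scalings and filters, summed 4504 libraries, libraries with at least 1000 Xist reads and left-out libraries were alternatives. Tools were tested on simulated data. Promoter windows came from RefSeq (GRCm38.p6), and figures from matplotlib 3.10.9. An allele shared by both groups and some marker genes are not reported here.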

Additional observations from a re-analysis of the deposited data

Results flagged for a closer look

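Of 30 sets of KPF values (levels, sums and ratios over 6 libraries), 10 had an extreme library that stood far from the rest, with a gap to its nearest neighbour above 0.625 of the range. In independent sets of normal values, chance flags about 1 in 20. The present sets are unlogged and share libraries and genes, so that rate need not hold for them. All 10 flags were at the high end. Cspg4 reads per Rgs5 read reached 0.279 in library 4504h, against 0.106 in the next library, and Pdgfra reads per Dcn read reached 0.135 in library 4435, against 0.0678. Both stayed below every KPYYF library. Library 4269 had the highest Pdgfra reads per Lum read, 7.50 against 2.11 in the next library, Pdgfra reads per Thy1 read, 3.00 against 0.728, and Cspg4 reads per Notch3 read, 7.00 against 1.11. The summed NG2 partners were highest in 4504h, at 3144 CPM. Library 4601 held the highest sums of macrophage and leukocyte markers, at 9638 CPM, and of platelet markers, at 263 CPM. Library 4515 held the highest sums of mesothelial markers, at 2753 CPM, and of epithelial markers, at 12468 CPM.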

How the results depend on the processing

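Over 19 alternatives, Cspg4, Pdgfra, Pdgfrb, Pdgfb and Pdgfc kept their sign in all. Pdgfd fell under the filter in all but 13. Its sign in those was set by the filter and is no result. The fold change of Pdgfa reversed with limma-voom (-0.11) and without KPYYF library 4938 (-0.18), and spanned -0.18 to 0.62 over the left-out libraries. With DESeq2, Pdgfb (-2.43, adjusted p = 0.00361) and Pdgfra (2.92) also passed adjustment, which made 3 PDGF genes. Cspg4 did not pass with limma-voom (3.87, adjusted p = 0.164), in the libraries with at least 1000 Xist reads (3.62, adjusted p = 0.221), without both 4504 libraries (4.34, adjusted p = 0.0664), or without these and 4601 (4.06, adjusted p = 0.0946), which left 0 PDGF genes in each. The last 2 settings were chosen after seeing the data. The cause was not tested. Leaving out single libraries gave 0 to 2 PDGF genes passing, and fold changes of 2.58 to 4.59 for Cspg4 (adjusted p = 0.0313 to 0.279), 1.88 to 3.40 for Pdgfra and -5.78 to -4.31 for Yap1. Cspg4 failed without KPF libraries 4269, 4435, 4504s or 4515, or KPYYF library 4938. Yap1 had -4.56 with limma-voom (adjusted p = 0.0886), and an adjusted p of 0.0553 without library 4891. Over all genes 155 passed, against 1197 with DESeq2, 307 without a filter, 83 with limma-voom, 37 in the Xist subset, 92 without both 4504 libraries and 4601, and 23 to 273 without single libraries. No paired analysis was possible because the replicate numbers follow accession order and the groups hold different mice. Depth limited Pdgfd most, with 104 reads in all.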
